A study of Mus musculus with 18 samples.

Results

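The comparison described here set the 6 ionomycin libraries of a mouse pancreatic ductal adenocarcinoma (PDAC) series against its 6 DMSO libraries, 12 of the 18 RNA-seq libraries in all. Members were taken by their labelled treatment, and the cell line was kept as a block. The 3 lines PD454, PD7591 and PD883 were each kept for 48 h with the vehicle DMSO or with 2.5 µM ionomycin, with 2 libraries for each line and treatment. The other 6 libraries came from the same lines kept for 48 h with 10 ng/ml TGFb. Here they entered the gene filter, the scaling, the line terms and the estimate of spread, and no contrast with them is described. Dexamethasone, cholera toxin, an insulin, transferrin and selenium premix, nicotinamide and triiodothyronine were in the medium of every group. The strain background is labelled as mixed, and the sources used here give neither the driver alleles of the lines nor whether a line is 1 clone. The labels do not say that duplicate libraries came from separate cultures, so p-values measure the spread between these libraries, which may be technical, and differences in response between lines.

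Ionomycin is a small lipid-soluble molecule that carries calcium ions across membranes, both from the medium and out of internal stores. Calcium in the cytosol acts through calmodulin, kinases and phosphatases on transcription, secretion, membrane traffic and metabolism. Pancreatic duct cells use calcium signals to control ion and fluid secretion, and ductal carcinoma lines grow as keratin-rich epithelial cells.

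The labelled cell type was checked against its markers. Keratins were abundant, with Krt8 at 1637 to 2673 CPM with DMSO and 1700.2 to 3257 with ionomycin and Krt18 at 1467 to 2487 CPM with DMSO and 1812 to 3829 with ionomycin, and the epithelial cadherin Cdh1 stood at 522 to 781 CPM with DMSO and 518 to 624 with ionomycin. Some ductal markers were close to 0, among them Epcam at 2.00 to 3.45 CPM with DMSO and 2.04 to 4.30 with ionomycin, Cldn4 at 0 to 0.218 CPM with DMSO and 0.233 to 0.847 with ionomycin and Onecut1 at 0 to 0.0436 CPM with DMSO and 0 to 0.108 with ionomycin (CPM, counts scaled to library size with TMM factors). Of 12 tested PDAC markers 3 were higher and 1 was lower with ionomycin. The summed level of 11 fibroblast markers was 2.88 to 6.67 CPM with DMSO and 2.35 to 5.76 with ionomycin, with none of 6 tested members changed. Immune markers summed to 4.80 to 6.16 CPM with DMSO and 9.54 to 30.1 with ionomycin, and 82.9% of that sum came from Cd68, a lysosomal membrane protein that many cell types hold; Ptprc, which marks blood cells, lay at 0.0570 to 0.274 CPM with DMSO and 0.0470 to 0.149 with ionomycin. Acinar markers summed to 0.0872 to 1.71 CPM with DMSO and 0.188 to 1.51 with ionomycin, and 6 of 10 had no count (Cpa1, Amy2b, Cela2a, Pnlip, Prss2 and Ptf1a). Endocrine markers summed to 0.274 to 2.64 CPM with DMSO and 0.0497 to 0.733 with ionomycin, and 5 of 10 had no count (Ins1, Ins2, Sst, Ppy and Iapp).

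Totals of the ionomycin and DMSO libraries ran from 17591005 to 32693557 counts. Of 13827 genes tested, 4599 changed with ionomycin (33.3%), of which 2372 were higher (17.2% of all tested) and 2227 lower (16.1%), by edgeR's quasi-likelihood test at a Benjamini-Hochberg adjusted p under 0.05. Scaling by library totals, which shifted the median log2 fold change of all genes from -0.03 to -0.117, gave 4931 changed genes, of which 39.3% were higher against 51.6%. The sign was the same in the 3 lines for 4368 of the 4599 genes. That count was taken among genes already called in these libraries, so it is no separate evidence that the lines agree. For 628 genes (4.54%) all 6 ionomycin libraries lay above all 6 DMSO libraries, and for 372 (2.69%) all 6 lay below. With the duplicates of each line and treatment summed to 1 sample 1858 genes passed, 1106 of them higher (8%) and 752 lower (5.44%), and with no line term 2152. Counts of list members shrank with them. DMSO libraries 14 of PD454 and 8 of PD883 were rich in short transcripts: across genes, the deviation from a gene's mean correlated with transcript length at r = -0.205 and -0.213. Genes said to rise or fall passed the test. Below, the count of a family is read against 17.2% and 16.1%.

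**Figure D1:**
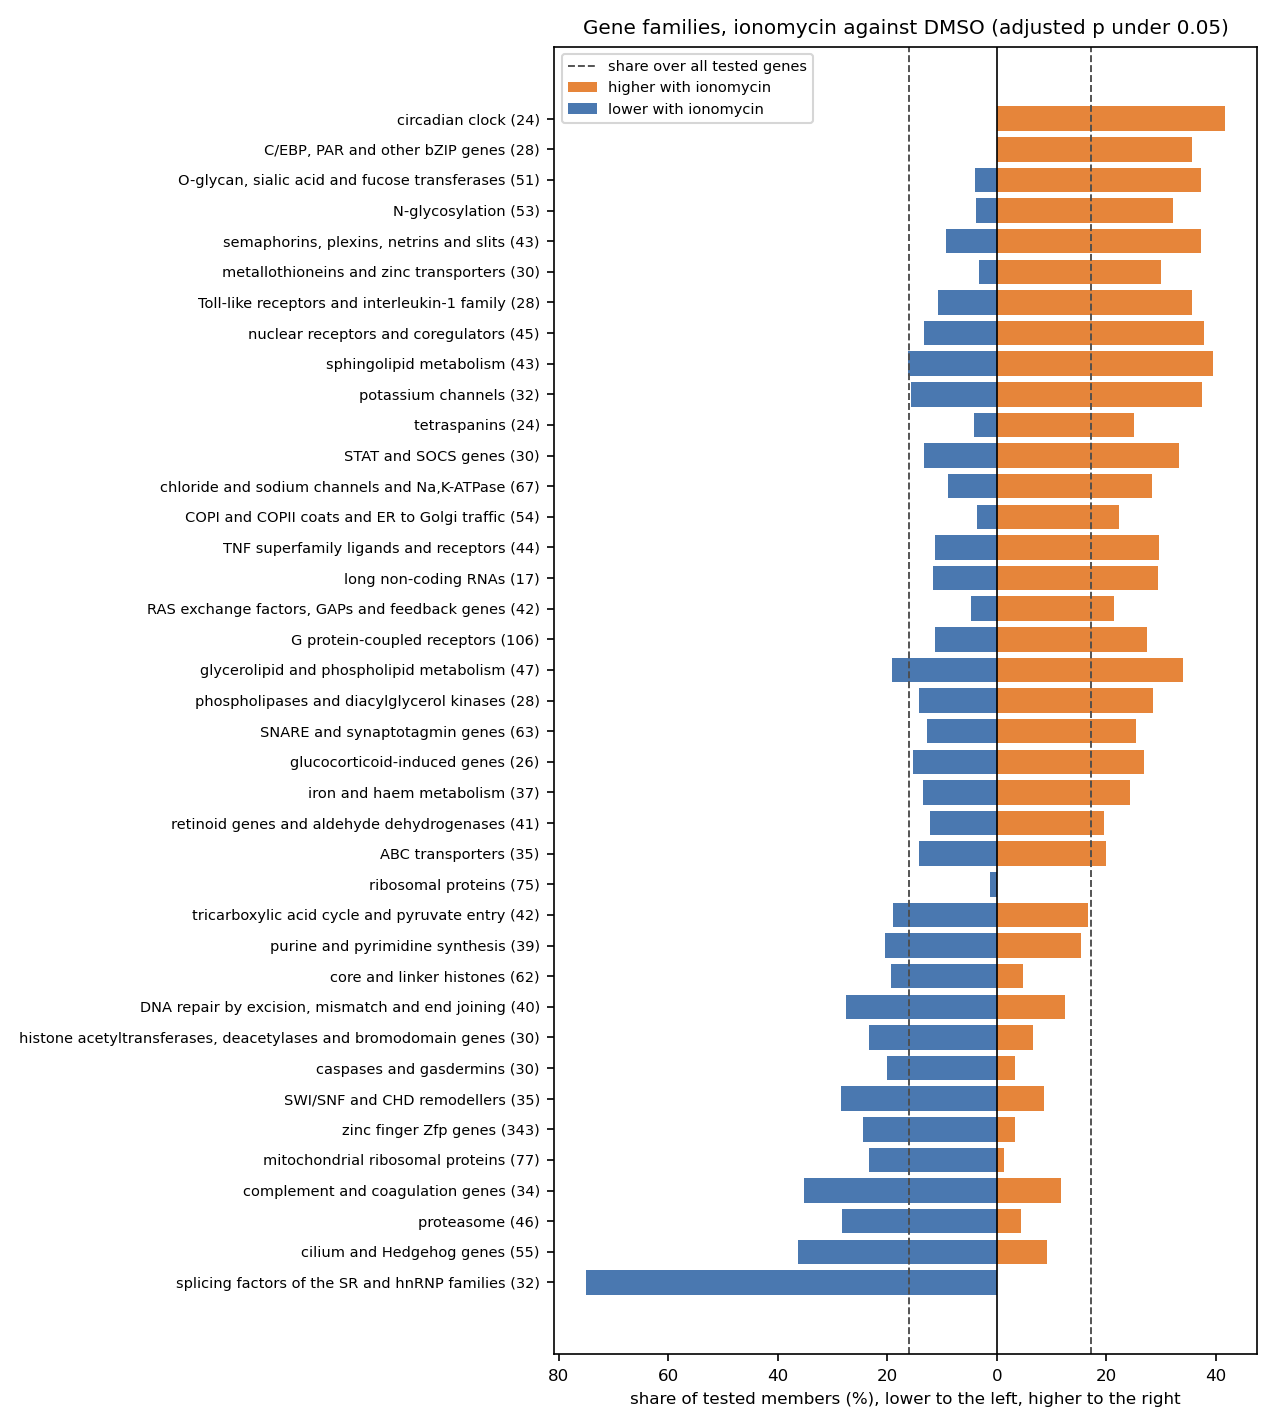
Share of the tested members of each gene family that were higher (right, orange) or lower (left, blue) with ionomycin than with DMSO, in percent, with the number of tested members after each name. Dashed lines mark the shares over all 13827 tested genes, 17.2% higher and 16.1% lower; of the families drawn, the SR and hnRNP splicing factors reach farthest to the lower side, with 24 of 32 members.

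Among the 20 largest rises were genes that start from very low levels with DMSO. Levels below are the median of 6 libraries with the lowest and highest as a range. Plek, which encodes pleckstrin, a protein kinase C substrate of platelets and leukocytes, had 0.0436 CPM (range 0 to 0.150) with DMSO and 14.5 CPM (range 1.04 to 17.3) with ionomycin. No DMSO library reached the lowest ionomycin library, and the log2 fold change was 7.33 ± 0.43, adjusted p = 1.53e-08; errors of log2 fold changes are standard errors throughout. Agt, encoding angiotensinogen, the precursor of angiotensin peptides, went from 0.313 CPM (range 0.110 to 0.818) to 35.9 CPM (range 2.63 to 103), with no overlap (6.31 ± 0.56, adjusted p = 2.35e-07). The Wnt ligand gene Wnt7a stood at 0.613 CPM (range 0 to 1.54) with DMSO and 19.7 CPM (range 1.44 to 58.6) with ionomycin. Its groups overlapped at the edge, and the log2 fold change was 5.27 ± 0.45, adjusted p = 1.77e-07, with 5.01 to 5.50 in the 3 lines.

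Selp, P-selectin, an adhesion receptor of platelets and endothelium, rose from 0.247 CPM (range 0 to 0.494) to 5.84 CPM (range 2.90 to 15.3) (4.88 ± 0.48, adjusted p = 6.84e-07). Thbd, thrombomodulin, which binds thrombin at the vessel surface, rose from 4.48 CPM (range 0.773 to 8.51) to 78.97 CPM (range 22.8 to 161) (4.18 ± 0.29, adjusted p = 1.54e-08). Jam2, a junctional adhesion molecule, rose from 8.67 CPM (range 3.88 to 12.4) to 105 CPM (range 48.96 to 221) (3.81 ± 0.25, adjusted p = 1.53e-08). For each of these 3 genes every ionomycin library exceeded every DMSO library. Olr1, a receptor for oxidised lipoprotein (4.42 ± 0.73), the hyaluronan receptor Lyve1 (4.02 ± 0.37), the leukocyte tetraspanin Cd53 (4.28 ± 0.49) and Calcrl, a receptor of calcitonin-type peptides (2.62 ± 0.31), rose as well. In that order their DMSO medians were 0.183, 0.488, 0.345 and 2.16 CPM, and only the groups of Olr1 overlapped. Endothelial markers were low. Kdr lay at 0 to 0.262 CPM with DMSO and 0 to 0.0923 with ionomycin. Emcn lay at 0 in every DMSO library and up to 0.0497 CPM with ionomycin. All 9 endothelial markers summed to 1.12 to 2.39 CPM with DMSO and 1.32 to 4.48 with ionomycin, and 49.7% came from Eng. Of 4 tested, 3 were higher, but 0 with summed duplicates. The 3 were Cdh5 (0 to 0.603 CPM with DMSO, 0 to 2.62 with ionomycin), Vwf (0.0300 to 0.0909, then 0.147 to 0.640) and Pecam1 (0.0549 to 0.436, then 0.174 to 0.753). The part of endothelial markers in the result was not tested. In bulk RNA, fewer cells of a type and less RNA per cell cannot be told apart.

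Among genes with a mean of at least 2 CPM, the largest called fall was that of Lgr5, a receptor for R-spondins that marks stem cells in several epithelia. Its DMSO libraries held 7.56 CPM (range 1.71 to 22.2) and its ionomycin libraries 0.0484 CPM (range 0 to 0.0978), which is -7.23 ± 0.73, adjusted p = 1.03e-06 as a log2 fold change, with 6 counts left in all ionomycin libraries. Albumin (Alb) fell from 17.1 CPM (range 6.20 to 48.8) to 1.43 CPM (range 0.465 to 2.63) (-3.68 ± 0.87, adjusted p = 0.00345, but adjusted p = 0.0875 with summed duplicates). Neither gene's groups overlapped. The receptor tyrosine kinase gene Fgfr2 went from 15.8 CPM (range 9.09 to 78.3) to 6.51 CPM (range 1.81 to 8.55) (-2.27 ± 0.33, adjusted p = 5.82e-05), again without overlap. Prex2, an exchange factor for the GTPase RAC (-2.64 ± 0.31), Camk4, a calmodulin-dependent kinase (-3.45 ± 0.44), Cybb, the catalytic subunit of a phagocyte oxidase (-2.83 ± 0.65, adjusted p = 0.0924 with summed duplicates), and Slc2a6, a glucose transporter family member (-2.37 ± 0.33), fell too. So did the phosphate and urate transporter family gene Slc17a4 (-3.93 ± 0.42), the flavin monooxygenase Fmo1 (-3.93 ± 0.60) and the cation channel Trpa1 (-2.19 ± 0.22).

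**Figure D2:**
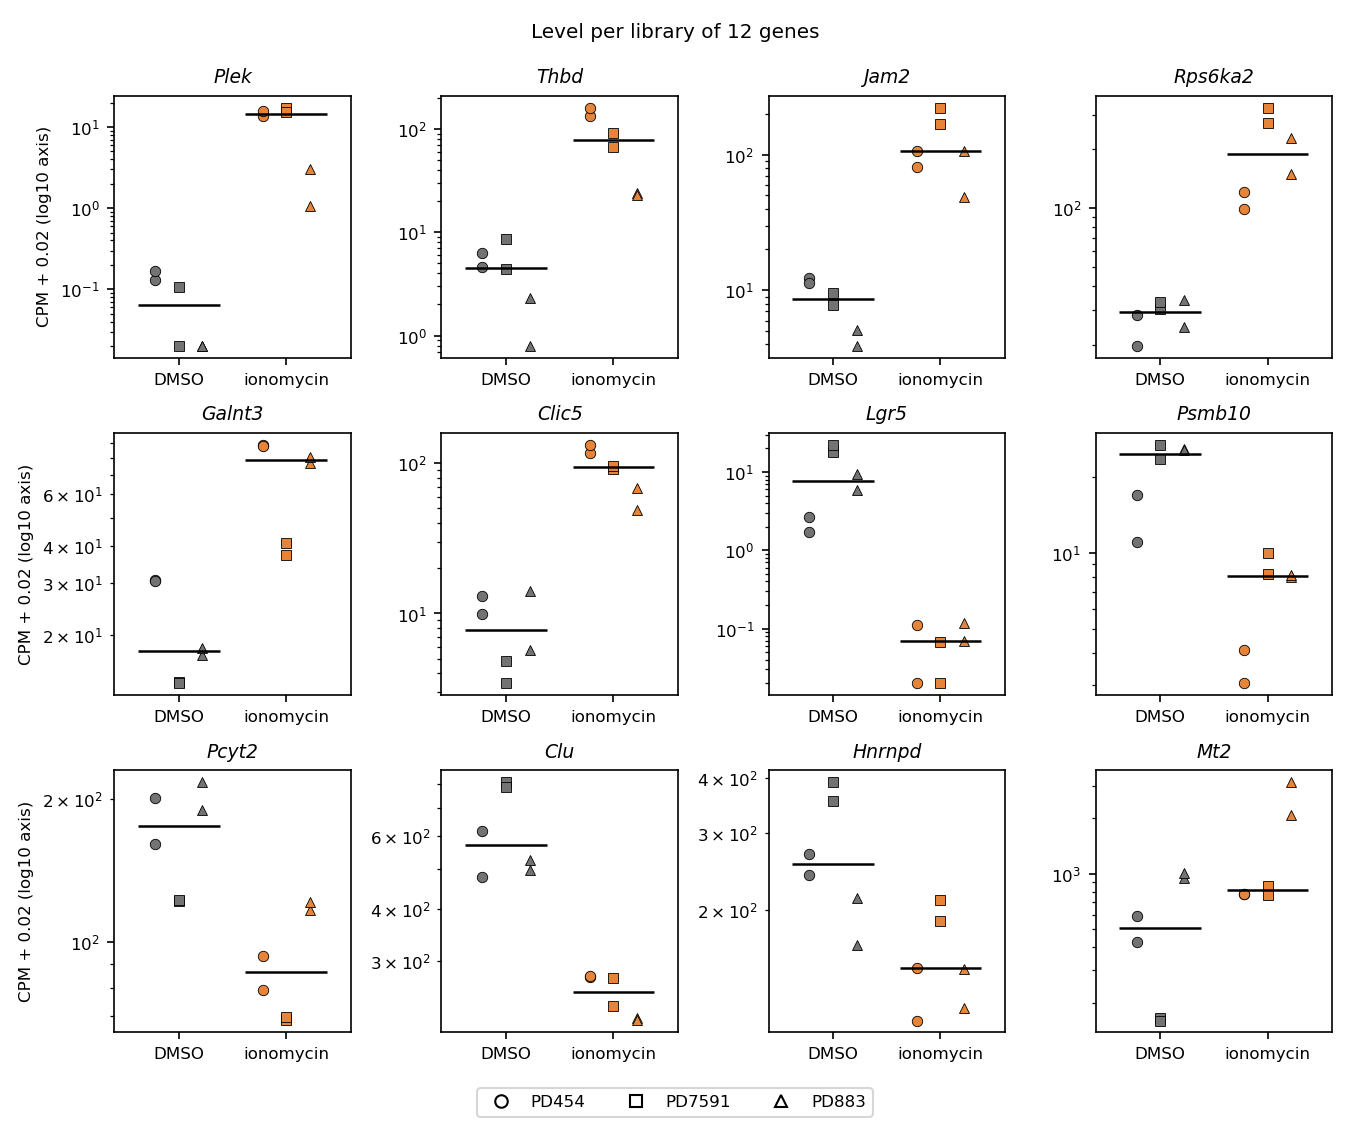
CPM per library (log10 axis, with 0.02 added so that 0 can be drawn) of 12 genes in the 6 DMSO (grey) and 6 ionomycin (orange) libraries, with 1 marker shape per line; bars are group medians. The groups of Plek, Thbd, Jam2, Rps6ka2, Galnt3 and Clic5 do not overlap on the higher side, nor do those of Lgr5, Psmb10, Pcyt2 and Clu on the lower side, while Hnrnpd and Mt2 overlap.

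Splicing factors had the largest share of members changed in the same direction among the families drawn. SR proteins mark exons for inclusion and hnRNPs coat nascent transcripts, often with opposite effects. Of 32 tested SR and hnRNP genes 24 were lower and 0 higher, against 16.1% and 17.2% of all genes, with a median log2 fold change of -0.53 against -0.03. All 32 members had negative values, from -1.06 to -0.14. The count of lower members was 13 without line PD7591 and 15 with summed duplicates. Line medians were -0.62 in PD454, -0.53 in PD7591 and -0.31 in PD883.

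Hnrnpm, which promotes alternative exon choice, held 480.2 CPM (range 322 to 547) with DMSO and 215 CPM (range 179 to 269) with ionomycin. All ionomycin libraries lay below all DMSO libraries (-1.06 ± 0.11, adjusted p = 1.33e-06). Hnrnpd, known as AUF1, a protein that binds AU-rich elements and speeds mRNA decay, went from 255 CPM (range 166 to 392) to 147 CPM (range 112 to 211), with overlapping groups (-0.80 ± 0.13, adjusted p = 0.000165). For Hnrnpr the log2 fold change was -0.54 ± 0.08, adjusted p = 7.71e-05. Of the SR proteins Srsf6 (-0.99 ± 0.17) and Srsf3 (-0.99 ± 0.17), both named here after their values were seen, fell most.

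**Figure D3:**
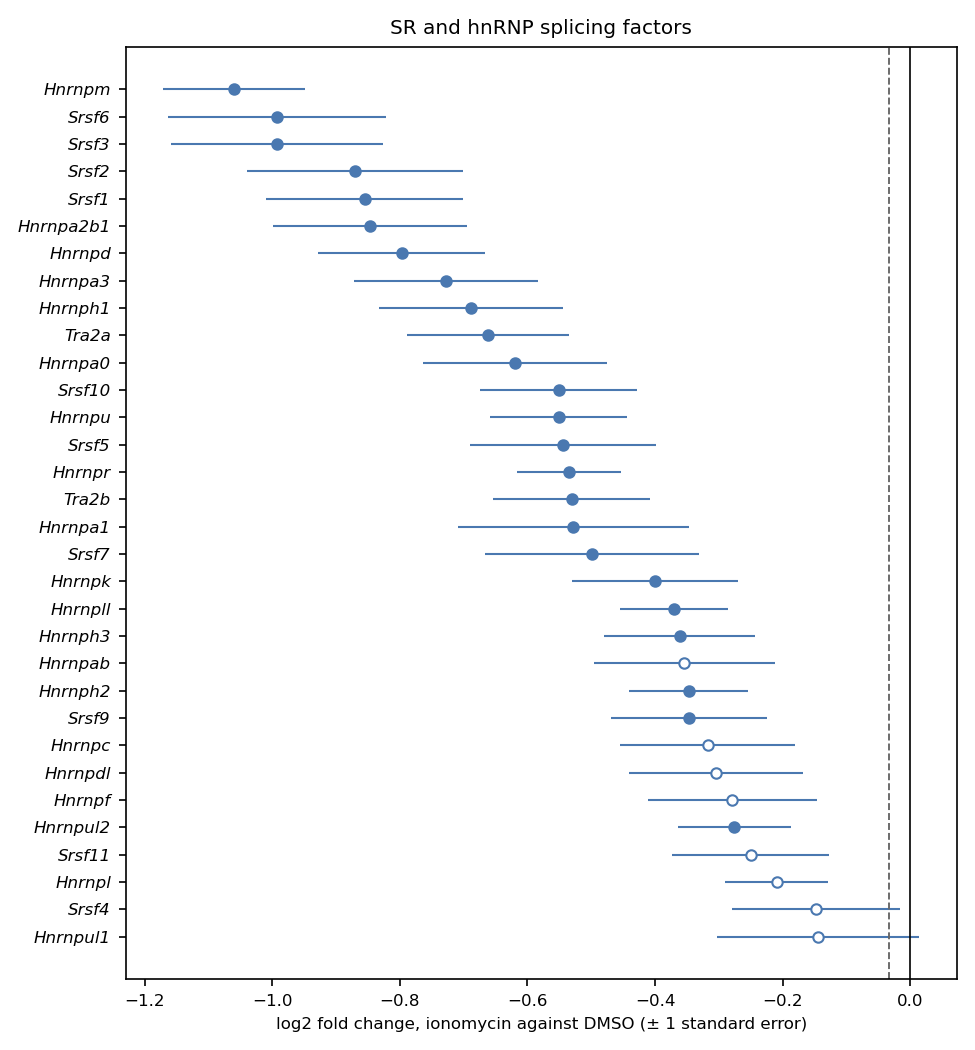
Log2 fold change, ionomycin against DMSO, of the 32 tested SR and hnRNP genes, sorted, with bars of 1 standard error; filled points passed the test (24) and open points did not (8). All points lie left of 0, the dashed line is the median of all genes (-0.03), and the lowest is Hnrnpm at -1.06.

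Among long non-coding RNAs 5 of 17 were higher and 2 lower, with a median of -0.15. The lower count was 0 without ionomycin libraries 15 or 16 of PD454 or 10 of PD883, and 1 without DMSO libraries 13 or 14 of PD454 or 7 or 8 of PD883, or ionomycin libraries 4 of PD7591 or 9 of PD883. Malat1, which gathers in nuclear speckles beside splicing factors, stood at 700.4 CPM (range 484 to 957) with DMSO and 1367 CPM (range 844 to 2428) with ionomycin, with some overlap (1.00 ± 0.23, adjusted p = 0.00246). Neat1, the scaffold of paraspeckles, rose from 700.2 CPM (range 419 to 793) to 1129 CPM (range 874 to 1527) without overlap (0.95 ± 0.19, adjusted p = 0.00100), a call lost when each library's trend on transcript length was removed (adjusted p = 0.0687). Trp53cor1, also called lincRNA-p21, rose by 2.35 ± 0.35 from a median of 0.796 CPM. Whether the authors' counting used strand is not known from the sources used here, so reads from overlapping antisense genes cannot be told apart.

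Zinc finger genes named Zfp, many of which encode DNA-binding repressors, also leaned to the lower side. Of 343 tested, 84 were lower and 11 higher, with a median of -0.18. The lower count was 53 without line PD883, 33 with no line term and 19 with summed duplicates. In that last fit 5.54% were lower, close to the 5.44% of all genes, and 1.46% higher, against 8%. The higher count was 18 without ionomycin library 4 of PD7591. Zfp386 fell from 20.5 CPM (range 18.8 to 23.1) to 12.3 CPM (range 9.28 to 13.98) without overlap (-0.82 ± 0.11, adjusted p = 1.40e-05). Zfp658 (-1.57 ± 0.21) and Zfp995 (-0.99 ± 0.13) fell and Zfp697 rose (0.94 ± 0.16). Trim28, the corepressor that many of these factors recruit, fell by 0.46 ± 0.08 (adjusted p = 0.000240).

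Of 62 tested histone genes 12 were lower and 3 higher (median -0.58), with 7 lower without line PD7591 and 19 with a mean fitted for each group. Many histone genes are near-identical copies, so their counts are uncertain. The linker histone H1fx went from 23.2 CPM (range 7.94 to 44.9) to 7.78 CPM (range 3.28 to 17.1) with overlap (-1.40 ± 0.16, adjusted p = 5.08e-06). SWI/SNF and CHD remodellers had 10 of 35 lower and 3 higher, and 4 lower without line PD7591. Their subunit gene Phf10 rose from 81.1 CPM (range 62.5 to 97.2) to 153 CPM (range 127 to 223) with no overlap (1.04 ± 0.09, adjusted p = 1.09e-07), and the ISWI-type ATPase Smarca1 fell by 1.56 ± 0.27.

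Among histone deacetylases Hdac11 rose by 1.25 ± 0.17. Hdac2 (-0.59 ± 0.11) and Hdac1 (-0.56 ± 0.14, adjusted p = 0.0533 without the 2 DMSO libraries rich in short transcripts) fell. Hdac11 and Hdac2 were named as a rising and a falling member of their list, and Hdac1 as its first gene. Their different directions are therefore no result about the family. The list of acetyltransferases, deacetylases and bromodomain genes had 7 of 30 lower and 2 higher, and 4 lower with no low-count filter. Polycomb genes had 2 of 32 higher and 6 lower, with 3 lower without DMSO library 1 or ionomycin library 3 of PD7591 or ionomycin library 16 of PD454. Histone methyltransferases and demethylases had 9 of 69 higher and 8 lower. There 5 were higher without DMSO library 8 or ionomycin libraries 9 or 10 of PD883, and 5 lower without DMSO libraries 1 of PD7591 or 8 of PD883 or ionomycin libraries 15 of PD454 or 4 of PD7591. Jarid2, a cofactor that guides Polycomb complex 2, went from 28.1 CPM (range 20.6 to 31.4) to 15.1 CPM (range 12.4 to 17.6) without overlap (-0.86 ± 0.11, adjusted p = 1.93e-05). The Polycomb methyltransferase Ezh1 rose by 0.81 ± 0.11, the histone demethylase Kdm7a by 1.09 ± 0.20, and the arginine methyltransferase Prmt1 fell by 0.74 ± 0.16.

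Genes of DNA base and strand repair were lower in 11 of 40 cases (6 without line PD454) and higher in 5. Apex1, the main endonuclease at abasic sites, was among the lower ones (-1.02 ± 0.17, adjusted p = 0.000213). Of 19 DNA methylation genes 3 were higher and 2 lower, the latter 4 without DMSO library 7 of PD883 and 1 without any other single library except ionomycin 4 of PD7591. Gadd45a, a stress-induced gene that takes part in DNA demethylation and growth arrest, rose from 14.2 CPM (range 7.73 to 20.2) to 77.3 CPM (range 26.5 to 156) with no overlap (2.37 ± 0.31, adjusted p = 1.56e-05). Its relative Gadd45b fell by 1.07 ± 0.25, a call lost without line PD7591 (adjusted p = 0.0627). Apobec1, a cytidine deaminase that edits RNA, rose by 1.05 ± 0.16.

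Cytosolic and mitochondrial ribosomal protein genes differed in the count called, but their medians lay on the same side, and the difference was not tested. Line medians in PD454, PD7591 and PD883 were -0.77, 0.06 and -0.13 for the cytosolic genes. For the mitochondrial genes they were -0.49, 0.01 and -0.07. Of 75 cytosolic ribosomal protein genes 1 was lower and 0 higher (median -0.26), with 11 lower without ionomycin library 9 of PD883. Of 77 mitochondrial ribosomal protein genes 18 were lower and 1 higher (median -0.17), with 11 lower without DMSO library 8 of PD883, 7 without line PD454 and 4 without the 2 DMSO libraries rich in short transcripts. Mrpl11 (-0.87 ± 0.18, adjusted p = 0.00119) and Mrpl40 (-0.66 ± 0.13, adjusted p = 0.000675) fell, each with all ionomycin libraries below all DMSO libraries. Ubtf, which loads RNA polymerase I onto ribosomal DNA, fell by 0.64 ± 0.11 and the translation factor Eif5a2 by 1.19 ± 0.17, while Eif3c, a scaffold subunit of initiation factor 3, rose by 0.74 ± 0.10.

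Proteasome subunits were lower in 13 of 46 cases and higher in 2 (median -0.28). The lower count depended on single libraries: it was 6 without DMSO library 8 of PD883, 8 without DMSO library 14 of PD454, 21 without DMSO library 7 of PD883, and 22 with library totals. Psmb10, a catalytic subunit of the immunoproteasome, went from 24.5 CPM (range 10.97 to 26.7) to 8.03 CPM (range 3.02 to 9.95) without overlap (-1.68 ± 0.17, adjusted p = 7.46e-07). Psma5 fell by 0.80 ± 0.16. Nfe2l1, a membrane-bound transcription factor that induces proteasome genes, rose from 444 CPM (range 366 to 584) to 832 CPM (range 669 to 909), also without overlap (0.84 ± 0.10, adjusted p = 5.61e-06).

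Sphingolipids are made from serine and acyl chains through ceramide. Of 43 tested sphingolipid genes 17 were higher and 7 lower (median 0.21). Sgms2, which makes sphingomyelin at the plasma membrane, rose from 119 CPM (range 58.9 to 148) to 429 CPM (range 178 to 755) with no overlap (1.93 ± 0.26, adjusted p = 2.91e-05). Sgpl1, the lyase that ends the pathway, rose by 0.66 ± 0.08, while the ceramide synthase Cers4 (-1.66 ± 0.33), the phosphodiesterase Smpdl3b (-2.56 ± 0.34), the serine palmitoyltransferase subunit Sptssb (-2.58 ± 0.28) and the sphingosine 1-phosphate receptor S1pr2 (-0.84 ± 0.13) fell.

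Glycerolipid and phospholipid genes counted 16 of 47 higher and 9 lower (median 0.17), but 2 higher with summed duplicates, a share below the 8% of all genes in that fit. Pcyt2 and Pcyt1b, which join phosphoethanolamine or phosphocholine to CTP, were named as falling members of this list. Their shared direction is therefore no result about that step. Pcyt2 went from 175 CPM (range 122 to 217) to 86.3 CPM (range 68.3 to 121) without overlap (-0.89 ± 0.10, adjusted p = 3.07e-06). Pcyt1b held 8.78 CPM (range 1.11 to 12.2) with DMSO and 0.342 CPM (range 0.244 to 2.10) with ionomycin, with a small overlap (-3.16 ± 0.37, adjusted p = 4.95e-06). Lpin1, a phosphatidate phosphatase, fell by 1.47 ± 0.26. Pnpla3, a lipid droplet hydrolase, fell by 3.05 ± 0.43 from a median of 1.68 CPM to 0.232 CPM. The acyltransferase Lclat1 (1.03 ± 0.12) and the phospholipase Pnpla8 (0.68 ± 0.13) rose. Among phospholipases and diacylglycerol kinases 8 of 28 were higher and 4 lower (5 higher without the 2 DMSO libraries rich in short transcripts), with rises of Pla2g12a (1.35 ± 0.12), Dgka (1.15 ± 0.16) and Dgkd (0.85 ± 0.12). In the same samples Atp8b1, a flippase that moves phospholipids across the membrane, rose by 3.84 ± 0.33.

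Of 42 enzymes around the tricarboxylic acid cycle 7 were higher and 8 lower (5 lower without line PD454), close to the shares over all genes. Pcx, pyruvate carboxylase, which refills the cycle, rose from 30.8 CPM (range 27.8 to 48.4) to 97.9 CPM (range 92.9 to 151) (1.71 ± 0.15, adjusted p = 2.26e-07). Got1, the cytosolic aspartate aminotransferase, rose by 1.02 ± 0.12. Idh1, which makes cytosolic NADPH, fell from 253 CPM (range 211 to 274) to 152 CPM (range 93.2 to 189) (-0.80 ± 0.09, adjusted p = 4.82e-06). Acly, which turns citrate into acetyl-CoA for lipid synthesis, fell from 463 CPM (range 421 to 542) to 296 CPM (range 232 to 325) (-0.72 ± 0.09, adjusted p = 5.66e-06). None of these 4 genes had overlapping groups. They were named as rising and falling members of the list, so their opposite directions are no result about the cycle. In purine and pyrimidine metabolism 6 of 39 were higher and 8 lower, the latter 4 without line PD7591 and 4 without the 2 DMSO libraries rich in short transcripts. The guanine deaminase Gda rose from 14.5 CPM (range 6.37 to 24.6) to 54.3 CPM (range 36.9 to 140.2) without overlap (2.37 ± 0.22, adjusted p = 3.80e-07), the purine synthesis enzyme Paics rose by 0.62 ± 0.10, and the phosphorylase Pnp (-0.68 ± 0.11) and the kinase Nme1 (-0.84 ± 0.19) fell. Of 41 retinoid and aldehyde dehydrogenase genes 8 were higher and 5 lower (2 lower without line PD7591, and 14 higher with a mean fitted for each group). The mitochondrial folate enzyme Aldh1l2 (2.96 ± 0.20), the proline synthesis enzyme Aldh18a1 (1.07 ± 0.12) and the retinol dehydrogenase Dhrs9 (2.29 ± 0.29) rose. Aldh1l2 and Aldh18a1 are also known as targets of the integrated stress response.

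O-glycan, sialic acid and fucose transferases had 19 of 51 higher and 2 lower (median 0.14), with 12 higher without line PD454. Medians by line were 0.16 in PD454, 0.28 in PD7591 and -0.07 in PD883. Galnt3, which starts mucin-type O-glycans, went from 17.5 CPM (range 13.7 to 30.6) to 78.6 CPM (range 37.4 to 88.3) with no overlap (1.73 ± 0.13, adjusted p = 2.29e-08). Fut8, the enzyme of core fucose on N-glycans, went from 39.1 CPM (range 36.6 to 47.9) to 104 CPM (range 91.6 to 123.4), likewise (1.38 ± 0.10, adjusted p = 3.76e-08). B3gnt2, which builds polylactosamine chains, rose by 0.88 ± 0.08, and the polysialyltransferase St8sia4 fell by 2.07 ± 0.40 from a median of 0.760 CPM. N-glycosylation genes had 17 of 53 higher and 2 lower (median 0.20), but 5 higher without line PD7591 and 5 with summed duplicates. The share with summed duplicates was 9.43%, against 8% of all genes in that fit. Gfpt1, which starts hexosamine synthesis, rose by 0.89 ± 0.14.

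Genes of traffic between the endoplasmic reticulum and the Golgi had 12 of 54 higher and 2 lower (median 0.07). Mcfd2, part of a cargo receptor for coagulation factors, rose by 0.73 ± 0.09 and Tmed7 by 0.50 ± 0.08. Of 63 SNARE and synaptotagmin genes 16 were higher and 8 lower. The higher count was 8 without line PD7591 and 4 with summed duplicates, a share below that of all genes in that fit, and the lower count was 5 without DMSO library 7 of PD883 or ionomycin library 15 or 16 of PD454. Nsf, the ATPase that takes SNARE complexes apart, rose by 1.14 ± 0.14 and the syntaxin Stx11 by 1.17 ± 0.10, and Syt11 fell by 1.12 ± 0.11.

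**Figure D4:**
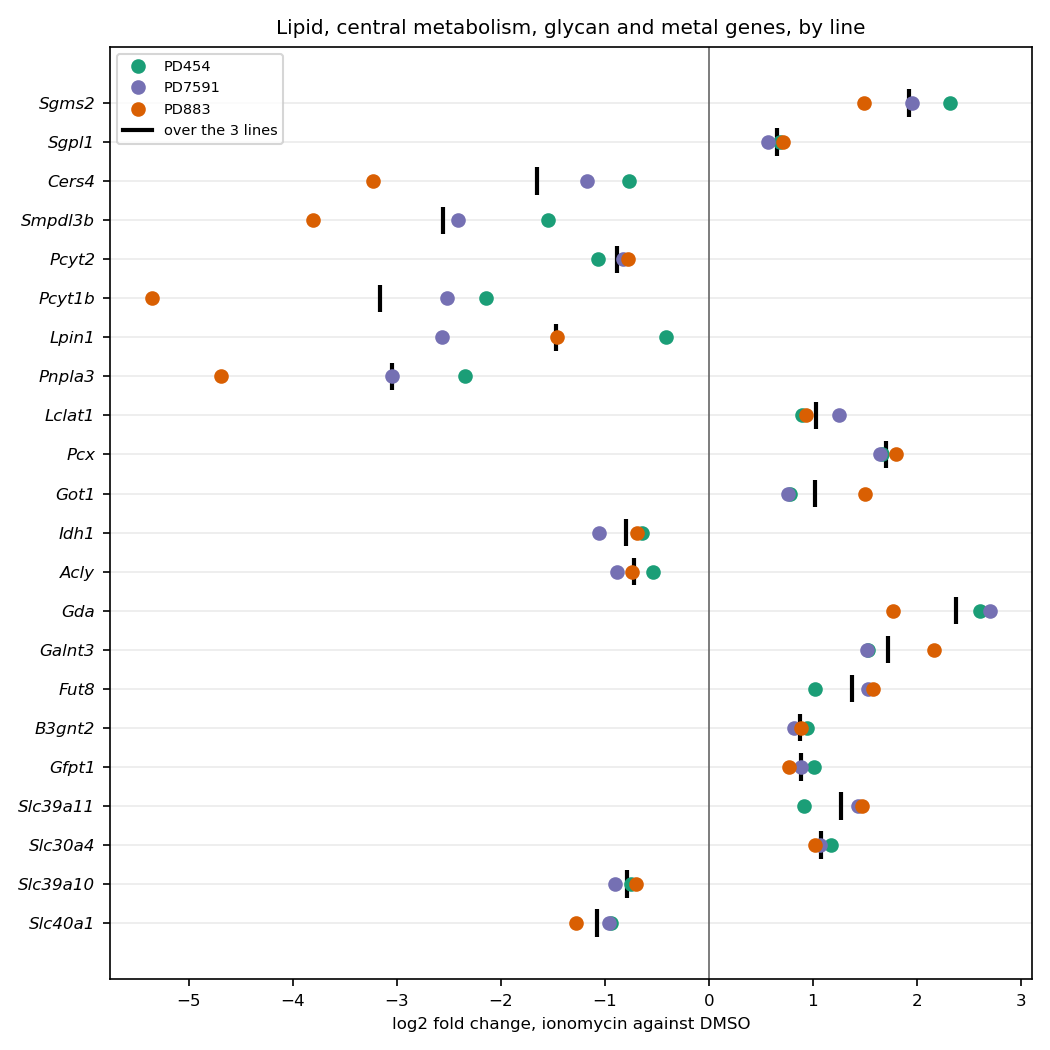
Log2 fold change, ionomycin against DMSO, within each line (points, 1 colour per line) for named lipid, central metabolism, glycan and metal genes, with the value over the 3 lines as a black bar. Sgms2, Galnt3, Fut8 and Pcx lie right of 0 in every line and Pcyt2, Idh1 and Acly left of 0, while Lpin1 is near 0 in PD454 (-0.42) and lowest in PD7591 (-2.57).

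Zinc handling genes had 9 of 30 higher and 1 lower (median 0.13). Slc39a11, a zinc importer of the ZIP family, rose from 44.98 CPM (range 30.4 to 50.005) to 94.995 CPM (range 76.9 to 139) (1.27 ± 0.10, adjusted p = 8.09e-08), with no overlap. Slc30a4, which exports zinc into vesicles, rose by 1.08 ± 0.12 and the importer Slc39a14 by 0.78 ± 0.11, while Slc39a10 fell by 0.79 ± 0.10. Tmem163, a zinc-binding membrane protein, rose by 4.01 ± 0.26. The metallothionein Mt2, a small zinc-binding protein, went from 508 CPM (range 159.8 to 1014) to 818 CPM (range 768 to 3134) with overlapping groups (1.48 ± 0.29, adjusted p = 0.000901). Its call was lost with summed duplicates (adjusted p = 0.0728) and with no line term (adjusted p = 0.0729). Mt1 stood at 0.71 ± 0.37 and did not pass (adjusted p = 0.147). It passed without line PD883 (adjusted p = 0.0368), with a mean fitted for each group (adjusted p = 0.0308) and with the length trend removed (adjusted p = 0.0455).

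The promoter of Mt2 is shown because metallothionein genes carry the metal response core, read as TGCACNC or TGCGCNC on both strands. The stretch from 228 to 39 bases before the RefSeq start (GRCm38.p6, chr8:94172390-94172579, + strand) held 3 copies, in capitals.
Mt2: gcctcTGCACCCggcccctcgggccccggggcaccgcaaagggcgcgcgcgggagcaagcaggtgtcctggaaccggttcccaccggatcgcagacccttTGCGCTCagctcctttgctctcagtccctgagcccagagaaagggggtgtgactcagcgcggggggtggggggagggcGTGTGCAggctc
The same core lay within 250 bases before the start in 21.4% of all 32851 RefSeq promoter windows, in 29.2% of those of tested genes, in 28.8% of those of higher genes and in 28.5% of those of lower genes. A match is a description of letters, not a site.

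Iron and haem genes had 9 of 37 higher and 5 lower. With summed duplicates 4 were higher (10.8%, against 8% of all genes in that fit). Slc40a1, ferroportin, the iron exporter of the cell surface, went from 25.9 CPM (range 21.3 to 50.005) to 13.4 CPM (range 10.3 to 19.5) without overlap (-1.07 ± 0.15, adjusted p = 3.78e-05). The mitochondrial iron importer Slc25a37 rose by 0.67 ± 0.12 and the haem synthesis enzyme Cpox by 0.68 ± 0.10, and Blvra, which makes bilirubin, fell by 0.68 ± 0.15.

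Cilium and Hedgehog genes were lower in 20 of 55 cases and higher in 5 (median -0.25). The lower count was 10 without line PD883, and the higher count was 2 without DMSO library 8 of PD883 and 0 without line PD454. Ttc8, a subunit of the BBSome coat that carries receptors into cilia, went from 6.67 CPM (range 5.91 to 8.42) to 3.14 CPM (range 1.79 to 4.80) without overlap (-1.11 ± 0.18, adjusted p = 0.000160). The transport gene Ift27 fell by 0.72 ± 0.12. Tuba1a, an alpha tubulin, fell from 418 CPM (range 284 to 564) to 209 CPM (range 144 to 256) without overlap (-1.10 ± 0.19, adjusted p = 0.000206), a value that reads of near-identical alpha tubulin genes could shift. Avil, advillin, an actin-binding protein of the villin family, rose by 3.82 ± 0.39.

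Of 25 protein kinase C, D and AKT genes 4 were higher and 4 lower, close to the shares over all genes, and without line PD7591 1 was lower. Rps6ka2, the ribosomal S6 kinase RSK3, went from 29.3 CPM (range 19.6 to 33.8) to 189 CPM (range 99.03 to 327) with no overlap (2.72 ± 0.18, adjusted p = 1.53e-08). Pkn3 (1.68 ± 0.13) and Prkce, protein kinase C epsilon (1.24 ± 0.18), rose. Of 42 genes for RAS exchange factors, GAPs and feedback 9 were higher and 2 lower, with 14 higher with a mean fitted for each group. The RAS inhibitor genes Rasa3 (1.12 ± 0.11) and Spry4 (1.57 ± 0.25) rose.

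STAT and SOCS genes, with their receptors, had 10 of 30 higher and 4 lower, and 4 higher without line PD454 and 5 without the 2 DMSO libraries rich in short transcripts. Socs2, a feedback inhibitor of growth hormone signalling, went from 20.5 CPM (range 10.2 to 31.9) to 109.6 CPM (range 94.4 to 131) without overlap (2.54 ± 0.18, adjusted p = 1.54e-08). Osmr, the oncostatin M receptor, rose by 1.97 ± 0.27. Toll-like receptor and interleukin-1 family genes had 10 of 28 higher and 3 lower (median 0.37). By line their medians were 0.41 in PD454, 0.46 in PD7591 and -0.12 in PD883. Il18r1 (1.86 ± 0.21) and Irak2 (0.80 ± 0.12) rose and the adaptor Myd88 fell by 0.74 ± 0.11.

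TNF superfamily genes were higher in 13 of 44 cases and lower in 5, with a median of -0.14. The lower count was 2 or 3 without any of 7 single libraries, namely DMSO 13 of PD454 and 7 of PD883 and ionomycin 15 and 16 of PD454, 3 of PD7591, and 9 and 10 of PD883. Ripk3, the kinase of necroptosis, went from 26.9 CPM (range 21.2 to 49.9) to 82.2 CPM (range 62.97 to 122.5) without overlap (1.54 ± 0.12, adjusted p = 3.76e-08). The RANK receptor Tnfrsf11a (2.33 ± 0.31) and the decoy receptor Tnfrsf23 (1.42 ± 0.14) rose. Fas, the death receptor, fell by 1.64 ± 0.38, with adjusted p = 0.0718 for summed duplicates. Caspase, gasdermin and inhibitor genes had 6 of 30 lower and 1 higher (2 lower without line PD7591). Birc2, which blocks cell death downstream of TNF, fell by 0.92 ± 0.17, and Apaf1, the scaffold of the apoptosome, by 0.64 ± 0.14 (adjusted p = 0.0849 without line PD7591).

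G protein-coupled receptors had 29 of 106 higher and 12 lower (median 0.24), with 16 higher without line PD454. Their medians by line were 0.49 in PD454, 0.14 in PD7591 and -0.10 in PD883. The lysosomal membrane protein Gpr137b (1.40 ± 0.13) and the adhesion receptor Adgrg2 (1.58 ± 0.18) rose, and the Wnt receptor Fzd2 fell by 1.32 ± 0.18. Axon guidance genes, which also steer epithelial cells, had 16 of 43 higher and 4 lower, and 9 higher without line PD454. Sema3c, a secreted semaphorin, went from 81.9 CPM (range 65.9 to 90.7) to 295 CPM (range 149 to 359) without overlap (1.74 ± 0.24, adjusted p = 3.01e-05). The plexin gene Plxna3 (1.26 ± 0.17) and the netrin receptor Unc5b (0.83 ± 0.13) rose. The neurotrophin gene Bdnf (1.31 ± 0.19) and Mst1r, the receptor of macrophage stimulating protein (1.48 ± 0.21), rose.

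By their counts, the lists of chloride and sodium channels and of potassium channels leaned to the higher side. Of 67 genes for chloride and sodium channels and Na,K-ATPase 19 were higher and 6 lower (median 0.19), the latter 11 with library totals, 12 with a mean fitted for each group and 10 with the length trend removed. Medians of these 67 genes were 0.24 in PD454, 0.23 in PD7591 and -0.10 in PD883. Clic5, an intracellular channel-like protein that anchors microvilli, went from 7.77 CPM (range 3.41 to 14.1) to 93.9 CPM (range 48.9 to 133) without overlap (3.49 ± 0.31, adjusted p = 3.05e-07). Fxyd5, a regulator of Na,K-ATPase, rose by 3.99 ± 0.39 and the glycerol channel Aqp9 by 4.05 ± 0.34 from a DMSO median of 0.228 CPM. Potassium channels had 12 of 32 higher and 5 lower (median 0.31), with 7 higher without line PD454 and 4 with no line term. Kcnq5 rose by 3.22 ± 0.36 from a DMSO median of 0.404 CPM, and the calcium-activated channel Kcnn4 by 1.01 ± 0.17. The groups of both genes overlapped. TRP, Piezo and TMC channels had 6 of 22 higher and 2 lower, but 0 higher with summed duplicates.

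Of 9 gap junction genes 2 were higher and 3 lower. Gjc1 fell by 1.10 ± 0.13, and Gja1, connexin 43, rose by 1.66 ± 0.30. Of 24 tetraspanins 6 were higher, Cd9 (0.73 ± 0.15) among them, and 1 was lower. Drug efflux and other ABC transporters counted 7 of 35 higher and 5 lower, with Abcc4, an exporter of cyclic nucleotides, at 0.70 ± 0.11.

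Among complement and coagulation genes 12 of 34 were lower and 4 higher (median -0.42), with 7 lower without ionomycin library 10 of PD883, 3 without line PD883 and 7 with limma-voom. Medians by line were -0.51 in PD454, 0.06 in PD7591 and -1.23 in PD883. Clu, clusterin, a secreted chaperone that restrains complement, went from 570.3 CPM (range 479 to 807) to 254 CPM (range 216 to 277) without overlap (-1.28 ± 0.11, adjusted p = 2.35e-07). Properdin (Cfp) fell by 1.34 ± 0.19, while Cd55, which breaks up complement convertases, rose by 1.80 ± 0.17.

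Clock genes were higher in 10 of 24 cases and lower in 0 (median 0.24). Arntl2, a partner of the clock activator CLOCK, went from 3.24 CPM (range 1.32 to 7.24) to 10.5 CPM (range 9.46 to 14.8) (1.88 ± 0.23, adjusted p = 6.53e-06). Ciart, a repressor of CLOCK and BMAL1, rose from 6.48 CPM (range 5.97 to 6.96) to 11.2 CPM (range 8.78 to 20.2) (0.89 ± 0.17, adjusted p = 0.000522). For both genes every ionomycin library exceeded every DMSO library.

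The E-box CACGTG, which CLOCK and BMAL1 and also MYC and MiT family factors read, is shown in the promoters of a clock gene that rose and of a channel gene that fell, Clcn6, a lysosomal chloride transporter (-0.84 ± 0.11, adjusted p = 1.92e-05). Capitals mark the E-boxes, and positions are from the RefSeq start in GRCm38.p6. The Ciart stretch runs from 121 to 37 bases before the start (chr3:95882265-95882349, - strand) with 3 copies, and the Clcn6 stretch from 53 to 18 bases (chr4:148038831-148038866, - strand) with 2.
Ciart: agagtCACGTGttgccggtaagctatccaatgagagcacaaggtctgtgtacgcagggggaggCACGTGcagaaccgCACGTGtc
Clcn6: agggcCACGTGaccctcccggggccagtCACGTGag
An E-box lay within 250 bases before the start in 6.02% of all RefSeq windows, in 8.01% of those of tested genes, 9.23% of those of higher genes and 7.70% of those of lower genes. Shares for the AP-1 motif TGACTCA, on both strands, were 4.46%, 3.72%, 5.33% and 3.23% in the same order.

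Nuclear receptors and coregulators had 17 of 45 higher and 6 lower (median 0.20), with 10 higher without line PD454, without line PD7591 or without the 2 DMSO libraries rich in short transcripts. Medians by line were 0.32 in PD454, -0.02 in PD7591 and 0.13 in PD883. Ppard, a lipid-sensing receptor, rose by 0.74 ± 0.13 and Nr2f1 fell by 1.05 ± 0.12. Of 28 C/EBP, PAR and other bZIP genes 10 were higher and 0 lower, and 6 higher without line PD7591. Cebpb (1.18 ± 0.19, adjusted p = 0.000176) and Mafk (0.78 ± 0.15) rose. With dexamethasone in the medium of all groups, glucocorticoid-induced genes had 7 of 26 higher and 4 lower. With summed duplicates 2 were higher (7.69%, against 8% of all genes in that fit). The pancreatic homeobox gene Pdx1, at 30.4 CPM (range 24.5 to 34.2) with DMSO and 18.2 CPM (range 9.94 to 23.3) with ionomycin, fell without overlap (-0.75 ± 0.16, adjusted p = 0.00188). Sox11 fell by 0.87 ± 0.14 and Myc rose by 0.65 ± 0.14, with adjusted p = 0.0602 for summed duplicates.

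The size of the effect depended on the line for 358 genes (2.59%), by a test on 2 degrees of freedom that rests on the spread between duplicates. That count ran from 106 without ionomycin library 16 of PD454 to 675 without DMSO library 8 of PD883, and of the 12 libraries only DMSO 13 of PD454 and ionomycin 10 of PD883 moved it by less than 1.5 times when left out. Jun, the AP-1 subunit, rose in PD454 (2.04) and fell in PD7591 (-1.46), with 0.15 in PD883 (line dependence adjusted p = 0.000451). The early growth response gene Egr1 stood at 2.51 in PD454, 0.03 in PD7591 and 1.75 in PD883 (adjusted p = 0.000529). Anxa8, a calcium-dependent membrane-binding protein, rose most in PD7591 (3.07, against 0.76 and 0.93 in PD454 and PD883), and Vcam1, a leukocyte adhesion receptor, fell most in PD883 (-3.32, against -0.54 in PD454, with PD7591 between them). Over the 3 lines, calls were lost with summed duplicates for Egr1 (adjusted p = 0.149), Anxa8 (adjusted p = 0.0593) and Vcam1 (adjusted p = 0.0820). With no line term those of Anxa8 (adjusted p = 0.116) and Vcam1 (adjusted p = 0.244) were lost, and without line PD454 that of Egr1 (adjusted p = 0.132). The 4 genes had the smallest p for line dependence at a mean of at least 2 CPM. Agt, Fxyd5 and Avil rose in every line but by different amounts: Agt by 3.53, 8.32 and 6.02 in PD454, PD7591 and PD883, Fxyd5 by 2.93, 6.27 and 3.59, and Avil by 2.29, 3.87 and 5.07.

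**Figure D5:**
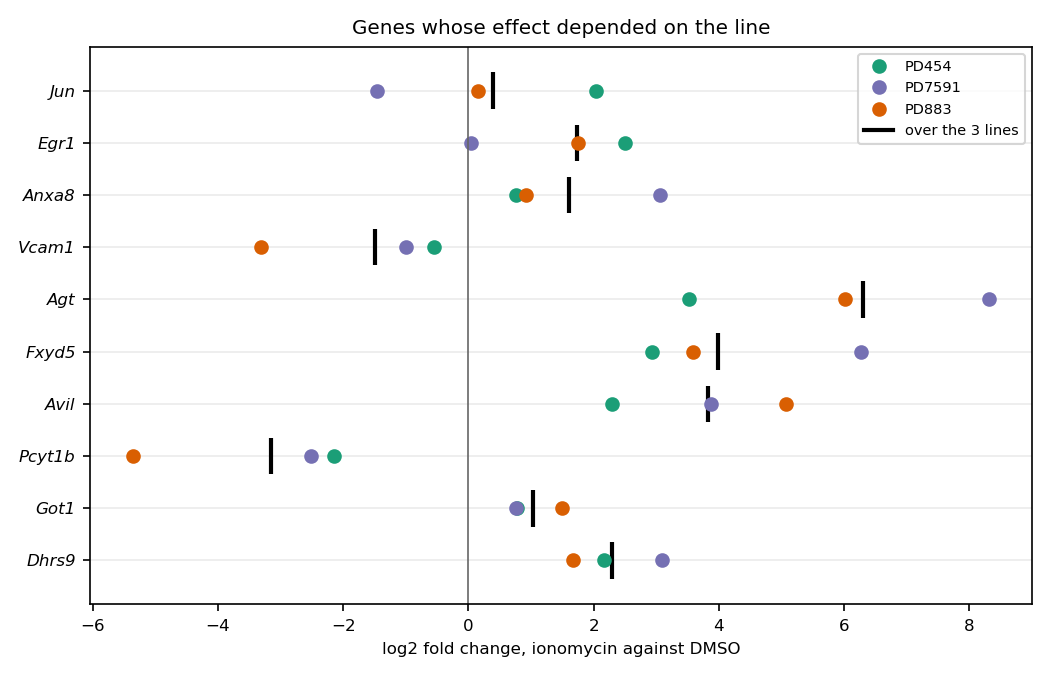
Log2 fold change, ionomycin against DMSO, within PD454, PD7591 and PD883 for 10 named genes whose effect depended on the line. Jun is above 0 in PD454 (2.04) and below 0 in PD7591 (-1.46), Fxyd5 and Agt are highest in PD7591, and Pcyt1b and Vcam1 are lowest in PD883.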

How the data were processed

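RNA was sequenced from 18 libraries of 3 PDAC lines, 2 per line and treatment. The authors deposited raw counts per gene symbol for 24527 genes. The submitters' processing notes name CASAVA, Trimmomatic 0.32, STAR, featureCounts and mm10; annotation and strand setting were not given in the sources used here. Of the names, 26 had been turned into dates and were kept as they stood.

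Genes were kept by filterByExpr over the 9 groups (13827 genes) and scaled by TMM. edgeR 4.0.16 (R 4.3.3) fitted treatment and line to all 18 libraries with its robust quasi-likelihood test, and p-values were adjusted by Benjamini-Hochberg over all tested genes. Line dependence was tested in a fit of 1 mean per group. Standard errors are the log2 fold change divided by the square root of F. The pipeline was tested on simulated counts. Library totals set the precision, at 17591005 to 32693557 counts in the ionomycin and DMSO libraries and up to 37894692 in the TGFb libraries. Over all 9 groups, Pearson's r of log2 CPM within a pair of duplicates was 0.981 to 0.993, and no pair agreed within counting noise.

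The comparison and the gene lists were chosen with earlier results of these data known. Named genes are the 20 largest rises and falls with the same sign in every line at 2 CPM or more on average, up to 3 per list and direction by smallest p, the first gene of a list, and the 4 most line-dependent genes; exceptions are marked. Only part of these is named, and most genes whose call was lost under several alternatives were left out, so the stability of the named genes is no result. Of 85 lists, 6 of them cell type markers, those whose counts turned on single libraries throughout are not described. Lists carry no test: their counts are set beside those of all genes. Alternatives were library totals, RLE factors, DESeq2 1.42.0, no low-count filter, limma-voom 3.58.1, other models, a length offset, and leaving out lines or libraries. Transcript lengths were matched for 97.6% of tested genes. Promoter windows are RefSeq's for GRCm38.p6.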

Additional observations from a re-analysis of the deposited data

Results flagged for a closer look

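In 3 of 90 groups of 6 libraries examined, the most extreme library stood apart. Its gap to its neighbour was a larger part of the group's range than Dixon's critical value for 6. Chance gives this in about 1 group in 20 when the 6 values are independent and normally distributed. Each group here held 2 libraries from each of 3 lines, so that rate need not hold. With DMSO, library 7 of PD883 was the highest for Pcx, at 48.4 CPM. With ionomycin, library 9 of PD883 was the highest for Ciart, at 20.2 CPM. Among DMSO totals, library 14 of PD454 was the highest, with 32693557 counts.

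For 12 named genes the ionomycin effect differed between lines by edgeR's quasi-likelihood test on 2 degrees of freedom, with Benjamini-Hochberg adjustment over all genes. Adjusted p-values were 0.000451 for Jun and Anxa8, and 0.000529 for Egr1 and Vcam1. They were 0.0019 for Fxyd5, 0.00502 for Avil and 0.0129 for Pcyt1b. For Dhrs9 the value was 0.0193, for Lpin1 0.0271 and for Lyve1 0.0305. Got1 at 0.0470 and Agt at 0.0489 lay closest to the threshold. Of these genes, only Jun had effects of opposite sign past the threshold within lines.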

How the results depend on the processing

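No paired analysis was possible because the library numbers are not shared between groups; pairing by line was in the fit as the line term, and summing duplicates left 3 line pairs. The 4599 changed genes (2372 higher, 2227 lower) became 2152 (1183 and 969) with no line term, 1858 (1106 and 752) with duplicates summed, and 1350 (776 and 574) with a log2 fold change of at least 1 in size. Without line PD454 1452 genes were lower and without line PD7591 1419. Leaving out 1 library at a time gave 3803 to 4945 changed genes, 2075 to 2614 higher and 1728 to 2331 lower. The 358 line-dependent genes became 1050 with no low-count filter, 196 with the 12 libraries alone and 106 to 675 without single libraries. Jun, which did not pass over the 3 lines, was reversed without line PD454 (-0.57, adjusted p = 0.199, by edgeR's quasi-likelihood test) and passed without line PD7591 (1.15, adjusted p = 0.0241). In this fit a lone library left in a group is assumed to vary like the others. Families with few called members moved by over 1.5 times most often. Depth limits genes near 0 CPM, such as Lgr5 with ionomycin and Plek with DMSO.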
